A study of Mus musculus with 27 samples.

Results

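The 10 genes described here belong to the circadian clock of mouse cells: Per1, Per2, Per3, Cry1, Cry2, Clock, Nr1d1, Nr1d2, Dbp and Bhlhe40. They were followed in KUSA4b10, a stromal line from mouse marrow whose cells the study's title calls differentiating osteoblasts, on 27 Affymetrix arrays that each measured total RNA from 1 sample. Each gene was represented by its probe set (the group of array probes that reads 1 transcript) annotated to that gene alone, and where there were several by the one with the highest mean log2 intensity over the 27 arrays. All 10 had such a probe set, of 18193 genes that did. There were 9 groups of 3 arrays: cells given residues 1 to 34 of parathyroid hormone (PTH) at 10 nM for 1, 6 or 24 h, cells given the related protein PTHrP (parathyroid hormone-related protein, residues 1 to 141) at 20 nM for 1, 6 or 24 h, and untreated control cells of each time. All groups are the same line, and the peptides differ in dose as well as in length, so ligand, length and dose cannot be told apart. The sources used here do not give the days in culture, or say whether cells were synchronised or changed to new medium before treatment. A sample is a whole culture, so fewer cells that express a gene and less RNA per cell cannot be told apart.

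The mammalian clock is a loop of transcription and repression that runs in nearly every cell, bone cells included. The protein of Clock pairs with that of Arntl (BMAL1) and switches on genes through the E-box, a short DNA motif. Among those genes are the period genes Per1, Per2 and Per3 and the cryptochrome genes Cry1 and Cry2, whose proteins return to the nucleus and block the pair. Nr1d1 and Nr1d2 encode REV-ERB alpha and beta, nuclear receptors that repress Arntl, while the ROR receptors activate it. Dbp encodes a PAR bZIP transcription factor that passes the rhythm on to output genes through the D-box, and Bhlhe40 (DEC1) encodes a repressor that competes at the E-box. Per1 is also known as a gene that answers cyclic AMP quickly through CREB, and the receptor shared by PTH and PTHrP raises cyclic AMP.

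Promoter sequences are shown for Per1, which rose at 1 h, and for Cry1, Per3, Nr1d2 and Dbp, which changed with both peptides at 6 h, to set known clock and cyclic AMP motifs beside the responses below. RefSeq windows of 250 bases before to 50 bases after an annotated start, on build GRCm38.p6, matched 8 of the 10 members, in 11 windows. They were searched on both strands for 5 motifs: the E-box CACGTG, the CRE half-site TGACG (the core that CREB binds), the full CRE TGACGTCA, the D-box TTATGTAA or TTACGTAA, and the nuclear receptor half-site AGGTCA to which REV-ERB and ROR proteins bind. In capitals are the motif matches, and all sequences run 5′ to 3′ along the gene. Of all 32851 windows of that length, 7.15% held the E-box, 20.81% the CRE half-site, 1.79% the full CRE, 1.06% the D-box and 16.26% the nuclear receptor half-site. The full CRE contains the half-site, so those matches overlap.
Per1, first start, plus strand, chr11:69098699-69098998: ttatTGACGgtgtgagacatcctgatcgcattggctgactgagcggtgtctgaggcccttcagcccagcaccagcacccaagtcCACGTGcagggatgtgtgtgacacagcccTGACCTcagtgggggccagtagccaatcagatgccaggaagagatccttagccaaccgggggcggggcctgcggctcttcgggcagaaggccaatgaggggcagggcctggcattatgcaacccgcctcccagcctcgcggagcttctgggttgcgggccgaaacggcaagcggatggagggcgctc
Per1, next start, plus strand, chr11:69099902-69100201: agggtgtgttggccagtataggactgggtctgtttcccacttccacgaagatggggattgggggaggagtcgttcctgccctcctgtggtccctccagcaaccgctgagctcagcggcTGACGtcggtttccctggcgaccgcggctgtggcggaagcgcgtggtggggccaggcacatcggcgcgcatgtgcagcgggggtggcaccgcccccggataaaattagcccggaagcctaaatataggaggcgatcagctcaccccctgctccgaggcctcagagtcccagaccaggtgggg
Cry1, minus strand, chr10:85185005-85185304: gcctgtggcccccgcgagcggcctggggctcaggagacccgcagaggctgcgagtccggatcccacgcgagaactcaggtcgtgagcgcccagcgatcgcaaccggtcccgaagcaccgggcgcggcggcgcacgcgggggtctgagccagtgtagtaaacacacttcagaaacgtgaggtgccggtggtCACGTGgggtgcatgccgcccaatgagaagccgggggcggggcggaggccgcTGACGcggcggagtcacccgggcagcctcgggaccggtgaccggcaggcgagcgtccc
Per3, minus strand, chr4:151044616-151044915: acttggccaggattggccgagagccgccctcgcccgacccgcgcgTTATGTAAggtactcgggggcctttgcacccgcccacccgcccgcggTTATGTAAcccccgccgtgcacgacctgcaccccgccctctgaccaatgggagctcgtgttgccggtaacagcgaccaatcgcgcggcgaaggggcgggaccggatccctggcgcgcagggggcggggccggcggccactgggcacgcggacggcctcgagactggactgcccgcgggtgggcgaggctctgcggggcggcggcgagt
Nr1d2, minus strand, chr14:18239057-18239356: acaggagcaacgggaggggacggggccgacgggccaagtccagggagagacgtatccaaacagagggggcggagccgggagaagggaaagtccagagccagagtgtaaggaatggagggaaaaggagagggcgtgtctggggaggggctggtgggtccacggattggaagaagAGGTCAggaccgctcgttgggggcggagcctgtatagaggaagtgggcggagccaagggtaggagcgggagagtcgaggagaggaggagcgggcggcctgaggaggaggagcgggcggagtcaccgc
Dbp, plus strand, chr7:45704997-45705296: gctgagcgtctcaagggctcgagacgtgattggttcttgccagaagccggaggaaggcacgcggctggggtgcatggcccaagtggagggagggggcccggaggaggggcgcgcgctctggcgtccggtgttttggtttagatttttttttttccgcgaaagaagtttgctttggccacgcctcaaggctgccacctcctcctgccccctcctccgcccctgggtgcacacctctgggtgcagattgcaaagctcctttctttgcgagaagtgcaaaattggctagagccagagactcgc

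The first Per1 window held a CRE half-site 246 bases before the start, an E-box at 166 and a nuclear receptor half-site at 137, and the other Per1 window a CRE half-site at 132. Cry1 had an E-box 60 bases and a CRE half-site 8 bases before its start. Per3 had the D-box letters at 205 and again at 158 bases, and Nr1d2 a nuclear receptor half-site at 77. The Dbp window held none of the 5 motifs. Windows not shown also held matches: Cry2 had a CRE half-site 209 bases before its start. A window of Clock, which did not change with either peptide, had a nuclear receptor half-site at 119. Of the members with a window, 2 held an E-box, 3 a CRE half-site, 0 a full CRE, 1 a D-box and 3 a nuclear receptor half-site. These are counts of genes, some with several windows, while the shares above are of windows, so they are not directly comparable. A match here describes letters in these windows alone, and binding was not measured.

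Values are log2 intensities of probe sets. A fit with limma gave each difference with its standard error (SE) and a p-value adjusted over all 15711 genes tested, and a gene rose, fell or changed where that adjusted p was below 0.05. All 10 members passed the filter on dim genes, a log2 intensity of at least 5 on at least 3 arrays. The SD is over the 3 arrays of a group. The labels do not say that replicates were separate cultures, and the p-values then cover only sample-to-sample spread, perhaps of technical origin. Array medians lay between 83.15 and 91.08 on the linear scale. Within groups, arrays correlated at 0.992 to 0.998 over genes, with 1 exception: PTHrP 1 h replicate 3 stood apart, and the lowest correlation in its group was 0.983. Genes of the osteoblast lineage were bright, with Sp7 at 8.03 to 11.12, Alpl at 11.13 to 13.00 and Col1a1 at 13.69 to 14.80. So were the stromal genes Pdgfra, Pdgfrb and Cxcl12 at 10.95 to 13.23, while the stromal gene Vcam1 was lower, at 8.56 to 9.86. The leukocyte gene Ptprc stayed at 3.89 to 4.38 and the macrophage gene Csf1r at 7.58 to 8.21, the endothelial genes Pecam1 at 4.65 to 5.38 and Kdr at 6.41 to 7.22, while the adipocyte genes Adipoq and Fabp4 reached 9.92 to 12.09 and 9.15 to 11.47.

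**Figure D1:**
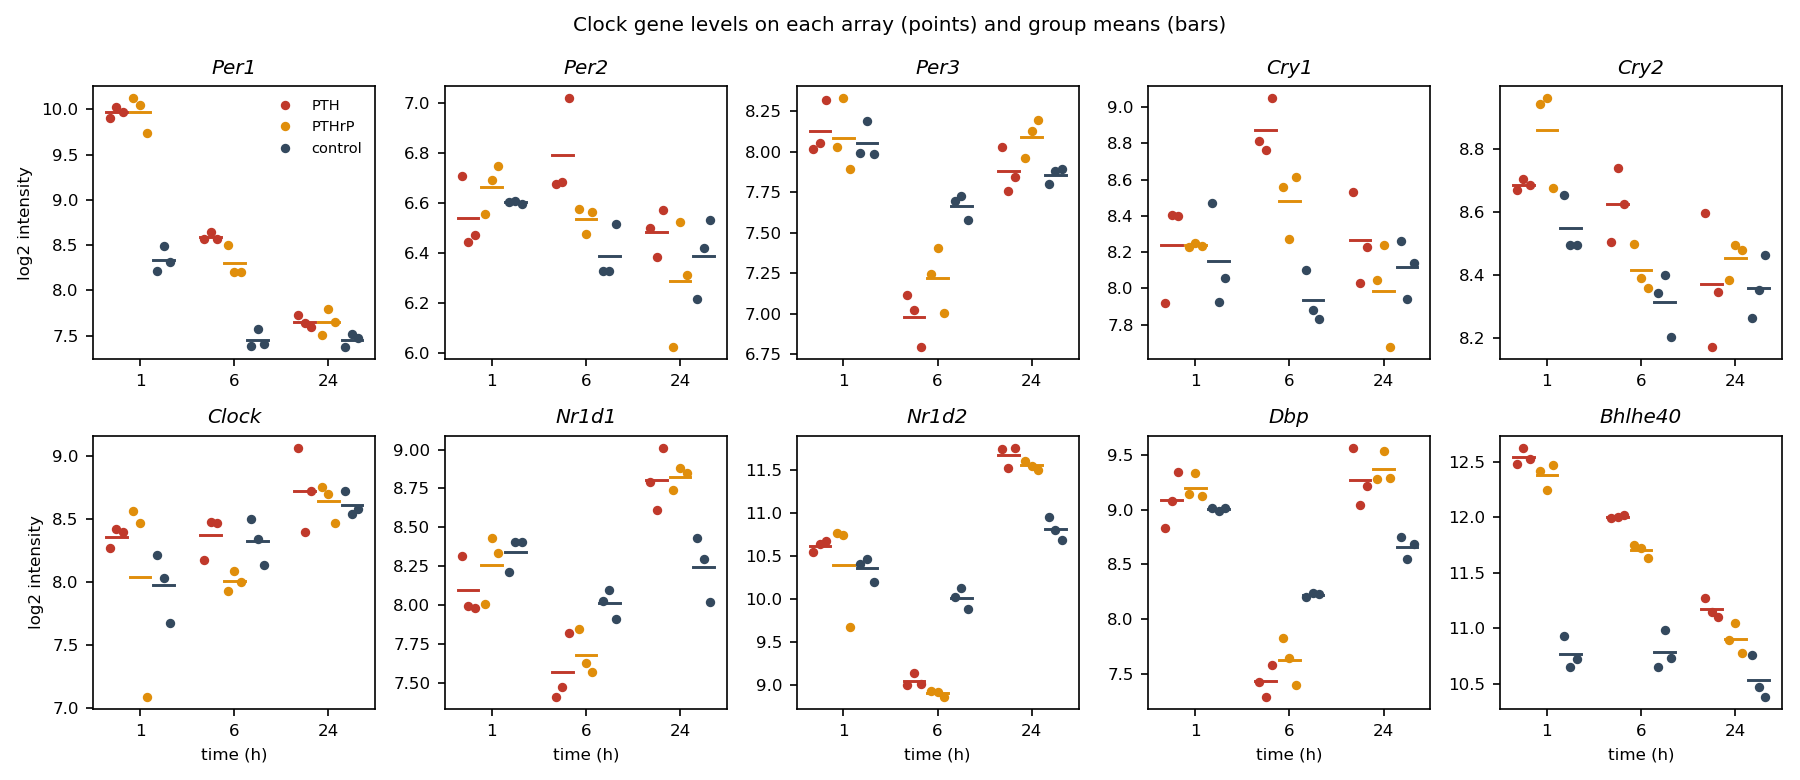
Log2 intensity of the 10 members by time in hours (1 panel a gene, points are arrays, bars are means of 3 arrays; PTH left, PTHrP middle, control right). Per1 and Bhlhe40 stand above control at 1 h and 6 h, while Nr1d2 and Dbp lie below control at 6 h and above it at 24 h; the PTHrP array with Clock at 7.09 at 1 h is replicate 3.

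In untreated cells Per1, Dbp and Nr1d2 were not level over the day of culture, and no other member changed on the probe set used. The control values are the background of every treatment value. Per1 stood at 8.22, 8.49 and 8.31 on the control arrays of 1 h, at 7.39, 7.57 and 7.41 at 6 h and at 7.38, 7.52 and 7.47 at 24 h. It was thus high once, at 1 h, with no overlap with either later time, and it fell by 0.88 ± 0.10 log2 units between 1 and 6 h (SE, n = 3, adjusted p = 3.76e-06). Dbp was at 9.01, 8.99 and 9.01 at 1 h, 8.20, 8.24 and 8.23 at 6 h and 8.75, 8.55 and 8.69 at 24 h. It dipped at 6 h, by 0.78 ± 0.13 (adjusted p = 0.000622), and was 0.44 ± 0.13 higher at 24 h than at 6 h (adjusted p = 0.012), a call that did not hold with control 24 h replicate 1 left out (adjusted p = 0.0581). Nr1d2 was 0.80 ± 0.17 higher at 24 h than at 6 h (adjusted p = 0.000808), with control means of 10.35 ± 0.14, 10.01 ± 0.12 and 10.81 ± 0.14 at 1, 6 and 24 h (SD, n = 3).

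From 1 to 6 h, 2 of 10 members changed, 0 higher and 2 lower, against 2.27% of all genes tested (0.719% higher and 1.55% lower). From 1 to 24 h, 1 member changed, the lower Per1, against 23.1% of all genes (11.6% higher and 11.5% lower). From 6 to 24 h, 2 members, Nr1d2 and Dbp, were higher and 0 were lower, against 23.4% (12.1% higher and 11.4% lower), so the share among the members was not above the background for either interval that ends at 24 h. The differences that did not pass ran from -0.39 ± 0.12 for Per3 (adjusted p = 0.0877) to 0.64 ± 0.24 for Clock (adjusted p = 0.0557). Clock, Nr1d2 and Dbp missed the threshold between 1 and 24 h by little, with adjusted p = 0.0557, 0.0538 and 0.0524. Their other probe sets differed in this: of 4 Clock probe sets 0 passed, with differences from -0.01 to 0.64. For Nr1d2 1 of 2 passed, at 0.46 to 0.50, and for Dbp 0 of 2, at -0.34 to -0.33. Markers moved over the same times in untreated cells: at 24 h against 6 h 5 of 5 osteoblast markers fell and 2 of 4 stromal markers rose, and at 24 h against 1 h 4 fell and 3 rose. In those comparisons 1 of 3 macrophage and blood markers and 1 of 3 cartilage markers also rose. The signal of Actb from its 3′ end exceeded that from its 5′ end, a sign of RNA quality, by 0.23 ± 0.02 log2 units at 1 h, 0.25 ± 0.05 at 6 h and 0.38 ± 0.01 at 24 h (SD, n = 3). The part of these in the clock gene values was not tested.

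At 1 h both peptides raised Per1 and Bhlhe40, and no other member passed. Per1 stood at 9.90, 10.03 and 9.97 with PTH and at 10.12, 10.04 and 9.74 with PTHrP, beside 8.22, 8.49 and 8.31 in the controls. Every treated array was above every control array, and Per1 rose by 1.62 ± 0.10 with PTH and 1.63 ± 0.10 with PTHrP, 3.08-fold and 3.09-fold (SE, n = 3 each, adjusted p = 2.51e-11 and 3.51e-11). Bhlhe40, the repressor gene, was the brightest member, at 12.48, 12.62 and 12.53 with PTH, 12.42, 12.25 and 12.47 with PTHrP and 10.93, 10.65 and 10.73 in untreated cells. Its treated arrays were also clear of the controls, and it rose by 1.78 ± 0.10 and 1.61 ± 0.10, 3.42-fold and 3.05-fold (adjusted p = 6.37e-12 and 5.16e-11). Per2 and Per3, the other period genes, did not pass: Per2 differed by -0.06 ± 0.11 and 0.06 ± 0.11 and Per3 by 0.07 ± 0.12 and 0.03 ± 0.12.

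So 2 of 10 members changed with PTH at 1 h, against 1.74% of all genes tested (1.44% higher, 0.299% lower), and 2 with PTHrP, against 1.81% (1.57% higher, 0.248% lower). The PTHrP array that stood apart bears on the other members. Clock was at 8.56, 8.47 and 7.09 with PTHrP and Nr1d2 at 10.76, 10.74 and 9.67, in both cases with replicate 3 lowest. Without it Cry2, Clock and Nr1d2 also passed with PTHrP, at 0.40, 0.54 and 0.39 (adjusted p = 0.015, 0.0372 and 0.0124). With all 3 arrays those differences were 0.31 ± 0.10, 0.07 ± 0.24 and 0.04 ± 0.17. The share of all genes called without that array is not given here, so these added calls are not set against a background. The Actb 3′ to 5′ difference at 1 h was 0.27 ± 0.02 with PTH and 0.28 ± 0.03 with PTHrP, beside 0.23 ± 0.02 in the controls (SD, n = 3, exact permutation p = 0.1 and 0.2, where 0.1 is the smallest possible). That of Gapdh was -0.17 ± 0.01 and -0.20 ± 0.02, beside -0.18 ± 0.01 (exact permutation p = 0.5 and 0.2). The part of these in the clock gene values was not tested.

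**Figure D2:**
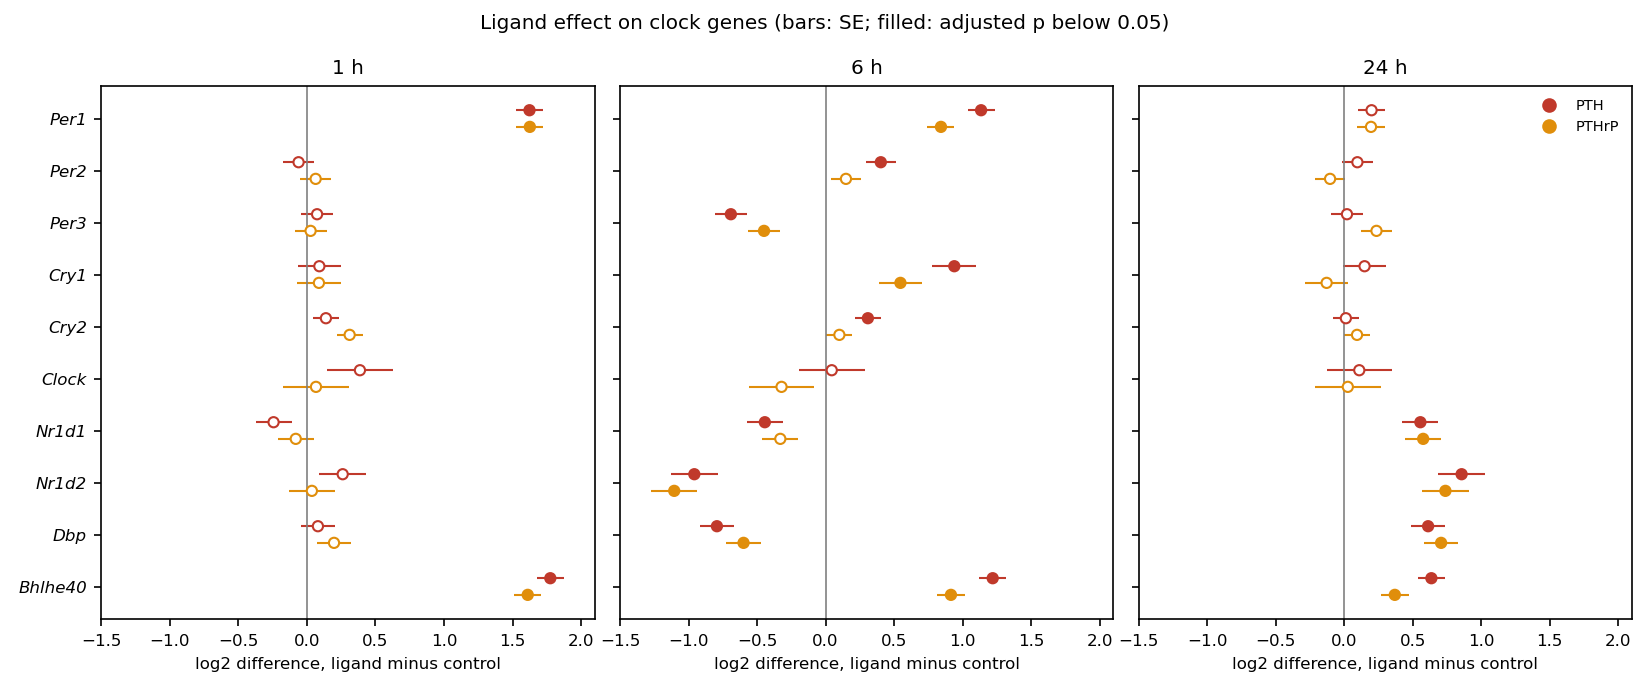
Difference of each member from control on the log2 scale, with its SE (PTH above PTHrP in each row; filled points passed an adjusted p below 0.05), at 1, 6 and 24 h. At 1 h the filled points are Per1 and Bhlhe40, and at 6 h Per3, Nr1d2 and Dbp are filled below 0 with both peptides. At 24 h Nr1d1, Nr1d2, Dbp and Bhlhe40 are filled above 0 with both.

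At 6 h the members split: Per1, Cry1 and Bhlhe40 rose with both peptides, and Per3, Nr1d2 and Dbp fell with both. With PTH, 9 of 10 members changed, 5 higher and 4 lower, against 29.3% of all genes tested (11.4% higher, 17.9% lower). With PTHrP, 6 of 10 changed, 3 higher and 3 lower, against 20.9% (8.7% higher, 12.2% lower). The median difference of the 10 members was 0.18 with PTH and -0.11 with PTHrP, beside -0.0034 and 0.03 over all genes tested, with changes of both signs among the members.

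Among the period genes, Per1 was still raised and Per3 was lowered. Per1 stood at 8.56, 8.64 and 8.57 with PTH and 8.50, 8.20 and 8.20 with PTHrP, beside 7.39, 7.57 and 7.41 in the controls. These groups did not overlap with control, and Per1 rose by 1.13 ± 0.10 and 0.84 ± 0.10 (adjusted p = 1.9e-09 and 5.44e-07). Per3 was at 7.11, 7.02 and 6.79 with PTH and 7.24, 7.41 and 7.0 with PTHrP, beside 7.70, 7.73 and 7.58 in the controls. All treated arrays were below all control arrays, and Per3 fell by 0.69 ± 0.12 and 0.45 ± 0.12 (adjusted p = 4.66e-05 and 0.00621), the PTHrP call being lost without PTHrP 6 h replicate 3 (adjusted p = 0.0587). Per2 rose by 0.40 ± 0.11 with PTH (adjusted p = 0.00676), a call lost without PTH 6 h replicate 3 (adjusted p = 0.0687), and differed by 0.15 ± 0.11 with PTHrP (adjusted p = 0.388).

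Of the cryptochrome genes, whose products repress the clock pair, Cry1 stood at 8.81, 8.76 and 9.05 with PTH and 8.56, 8.27 and 8.62 with PTHrP, beside 8.10, 7.88 and 7.83 in the controls. Both treated groups lay above the controls, the PTH group highest, and Cry1 rose by 0.94 ± 0.16 and 0.55 ± 0.16 (adjusted p = 5.07e-05 and 0.0148). The PTHrP call was lost without control 6 h replicate 2, control 6 h replicate 3, PTHrP 6 h replicate 1 or PTHrP 6 h replicate 3 (adjusted p = 0.0526 to 0.0695). Cry2 rose by 0.31 ± 0.10 with PTH (adjusted p = 0.0149) and differed by 0.10 ± 0.10 with PTHrP (adjusted p = 0.509), and the PTH call was lost without control 6 h replicate 3 or PTH 6 h replicate 2 (adjusted p = 0.0847 and 0.0881). Clock, the activator, did not pass, at 0.05 ± 0.24 and -0.32 ± 0.24. Bhlhe40 was at 11.99, 12.01 and 12.02 with PTH and 11.75, 11.72 and 11.63 with PTHrP, beside 10.65, 10.98 and 10.73 in the controls. It rose by 1.22 ± 0.10 and 0.91 ± 0.10, with no overlap (adjusted p = 6.79e-10 and 1.95e-07).

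The REV-ERB gene Nr1d2 and the output gene Dbp fell with both peptides, and the REV-ERB gene Nr1d1 fell with PTH. Nr1d2 stood at 9.0, 9.14 and 9.01 with PTH and 8.93, 8.92 and 8.87 with PTHrP, beside 10.02, 10.12 and 9.89 in the controls. No treated array reached the control range, and Nr1d2 fell by 0.96 ± 0.17 and 1.10 ± 0.17, to 0.51 and 0.47 of the control level (adjusted p = 8.64e-05 and 2.6e-05). Dbp was at 7.42, 7.29 and 7.58 with PTH and 7.83, 7.64 and 7.40 with PTHrP, beside 8.20, 8.24 and 8.23 in the controls. It fell by 0.79 ± 0.13 and 0.60 ± 0.13 (adjusted p = 2.43e-05 and 0.00104), again with no overlap. Nr1d1 was at 7.41, 7.47 and 7.82 with PTH and 7.84, 7.62 and 7.57 with PTHrP, beside 8.02, 8.10 and 7.91 in the controls. Its groups did not overlap either, but only the PTH difference of -0.44 ± 0.13 passed (adjusted p = 0.0115); with PTHrP it was -0.33 ± 0.13 (adjusted p = 0.0792). The PTH call was lost without control 6 h replicate 2, PTH 6 h replicate 1 or PTH 6 h replicate 2 (adjusted p = 0.0525 to 0.0698).

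Other values moved with treatment at 6 h. The Actb 3′ to 5′ difference was 0.34 ± 0.01 log2 units with PTH and 0.30 ± 0.05 with PTHrP, beside 0.25 ± 0.05 in the controls (SD, n = 3, exact permutation p = 0.1 and 0.3, where 0.1 is the smallest possible). That of Gapdh was -0.17 ± 0.02 with PTH and -0.15 ± 0.03 with PTHrP, beside -0.20 ± 0.02 in the controls (exact permutation p = 0.1 for each). Of 5 osteoblast markers measured, 3 fell with either peptide. Of 3 cartilage markers, 0 changed with PTH and 1 rose with PTHrP, and their summed linear intensity was 471 to 549 with PTH and 524 to 565 with PTHrP, beside 424 to 457 in the controls. The 5 osteoblast markers summed to 39074 to 39306 with PTH and 41719 to 45075 with PTHrP, beside 47971 to 49440 in the controls. Col1a1, the brightest of them, weighs most in this linear sum. Of 3 macrophage and blood markers tested 1 rose with PTH and 0 changed with PTHrP, and of 4 stromal markers 1 rose and 1 fell with PTH and 0 changed with PTHrP. With PTHrP the sums of other lists also lay clear of the controls, at 386 to 422 beside 332 to 366 for macrophage and blood, 233 to 253 beside 209 to 220 for endothelium and 308 to 343 beside 272 to 305 for muscle. With PTH these 3 sums, at 345 to 420, 208 to 230 and 296 to 336, overlapped the controls. The part of these in the clock gene values was not tested.

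By 24 h the REV-ERB genes and Dbp were above untreated cells, the opposite of 6 h. Nr1d2 stood at 11.74, 11.52 and 11.75 with PTH and 11.61, 11.55 and 11.50 with PTHrP, beside 10.96, 10.80 and 10.68 in the controls. Treated and control arrays were well apart, and Nr1d2 rose by 0.86 ± 0.17 and 0.74 ± 0.17, 1.81-fold and 1.67-fold (adjusted p = 0.000969 and 0.00639). Dbp was at 9.56, 9.04 and 9.22 with PTH and 9.28, 9.54 and 9.29 with PTHrP, beside 8.75, 8.55 and 8.69 in the controls. It rose by 0.61 ± 0.13 and 0.71 ± 0.13, with no overlap (adjusted p = 0.00155 and 0.000513). Nr1d1 was at 8.79, 8.61 and 9.01 with PTH and 8.74, 8.88 and 8.85 with PTHrP, beside 8.43, 8.30 and 8.02 in the controls. It rose by 0.56 ± 0.13 and 0.58 ± 0.13 (adjusted p = 0.00533 and 0.00602), and both calls were lost without control 24 h replicate 3, the lowest control array (adjusted p = 0.0556 and 0.0693).

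Bhlhe40 stood at 11.27, 11.15 and 11.10 at 24 h with PTH and 10.89, 11.05 and 10.77 with PTHrP, beside 10.75, 10.47 and 10.38 in the controls. The groups were apart by a narrow gap for PTHrP and a wider one for PTH, and Bhlhe40 rose by 0.64 ± 0.10 with PTH and 0.37 ± 0.10 with PTHrP (adjusted p = 6.81e-05 and 0.0242). The PTHrP call was lost without control 24 h replicate 2, control 24 h replicate 3, PTHrP 24 h replicate 1 or PTHrP 24 h replicate 2 (adjusted p = 0.0719 to 0.177). Per1 no longer passed, at 0.20 ± 0.10 and 0.20 ± 0.10, and neither did Per2, Per3, Cry1, Cry2 or Clock, which lay between -0.13 ± 0.16 and 0.24 ± 0.12. So 4 of 10 members changed with PTH, 4 higher and 0 lower, against 11.6% of all genes tested (5.69% higher, 5.96% lower). With PTHrP the same 4 changed, against 6.1% (3.09% higher, 3.02% lower).

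Marker and quality values also moved at 24 h, and their part in the clock gene values was not tested. The Actb 3′ to 5′ difference was 0.42 ± 0.01 with PTH and 0.44 ± 0.01 with PTHrP, beside 0.38 ± 0.01 in the controls (SD, n = 3, exact permutation p = 0.1 for each). That of Gapdh was -0.21 ± 0.01 with PTH and -0.22 ± 0.01 with PTHrP, beside -0.21 ± 0.01 in the controls (exact permutation p = 0.8 and 0.2). Of 5 osteoblast markers 5 fell with PTH and 4 with PTHrP, and of 3 cartilage markers 2 fell with either, with a summed linear intensity of 293 to 363 with PTH and 300 to 333 with PTHrP, beside 450 to 479 in the controls. The osteoblast sum, in which Col1a1 weighs most, was 17315 to 18874 with PTH and 21657 to 27792 with PTHrP, beside 35704 to 36422 in the controls. Of 2 adipocyte markers 1 fell with PTH and 0 with PTHrP, and their sum was 1683 to 2883 with PTH and 1536 to 4373 with PTHrP, beside 3237 to 5098 in the controls. Of 4 stromal markers 1 rose with either peptide, and of 3 macrophage and blood markers tested 1 fell with PTH and 0 changed with PTHrP. Of 4 endothelial and 3 muscle markers 0 changed against control at any time with either peptide.

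The change of each peptide's effect with time was tested directly. Between 6 and 24 h the PTH effect on Nr1d2 shifted by 1.81 ± 0.24 log2 units (adjusted p = 4.49e-06) and the PTHrP effect by 1.84 ± 0.24 (adjusted p = 9.57e-06). For Dbp the shifts were 1.41 ± 0.18 and 1.31 ± 0.18 (adjusted p = 2.76e-06 and 2e-05) and for Nr1d1 1.00 ± 0.19 and 0.91 ± 0.19 (adjusted p = 0.000301 and 0.00165). With both peptides the treated arrays of these 3 genes lay below control at 6 h and above it at 24 h. Per3 also shifted up, by 0.71 ± 0.16 and 0.68 ± 0.16 on the probe set used. It had 6 probe sets, of which 2 passed for this shift with each peptide and 1 lay below 0 with PTH. Its PTHrP arrays likewise lay below control at 6 h and above it at 24 h, at 7.96 to 8.19 beside 7.80 to 7.89 in the controls, though the 24 h difference of 0.24 ± 0.12 did not pass (adjusted p = 0.34), and its PTH arrays at 24 h overlapped the controls. Over this interval 7 of 10 members changed with PTH and 6 with PTHrP, against 20.4% and 12.1% of all genes tested.

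Between 1 and 6 h, 7 of 10 members changed in their PTH effect, against 18.5% of all genes tested, and 4 in their PTHrP effect, against 12.2%. The early responders lost part of their increase: the effect on Per1 declined by 0.49 ± 0.14 with PTH and 0.78 ± 0.14 with PTHrP, and that on Bhlhe40 by 0.56 ± 0.14 and 0.70 ± 0.14 (adjusted p = 0.0145, 0.000349, 0.00629 and 0.00146). The effect on Cry1 grew by 0.85 ± 0.23 with PTH (adjusted p = 0.00869). A change of 0.46 ± 0.16 for Per2 with PTH (adjusted p = 0.0402) was lost in 8 of 12 fits that each left out 1 array, with adjusted p up to 0.134. Both intervals rest on the arrays of 6 h, so they are not independent.

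**Figure D3:**
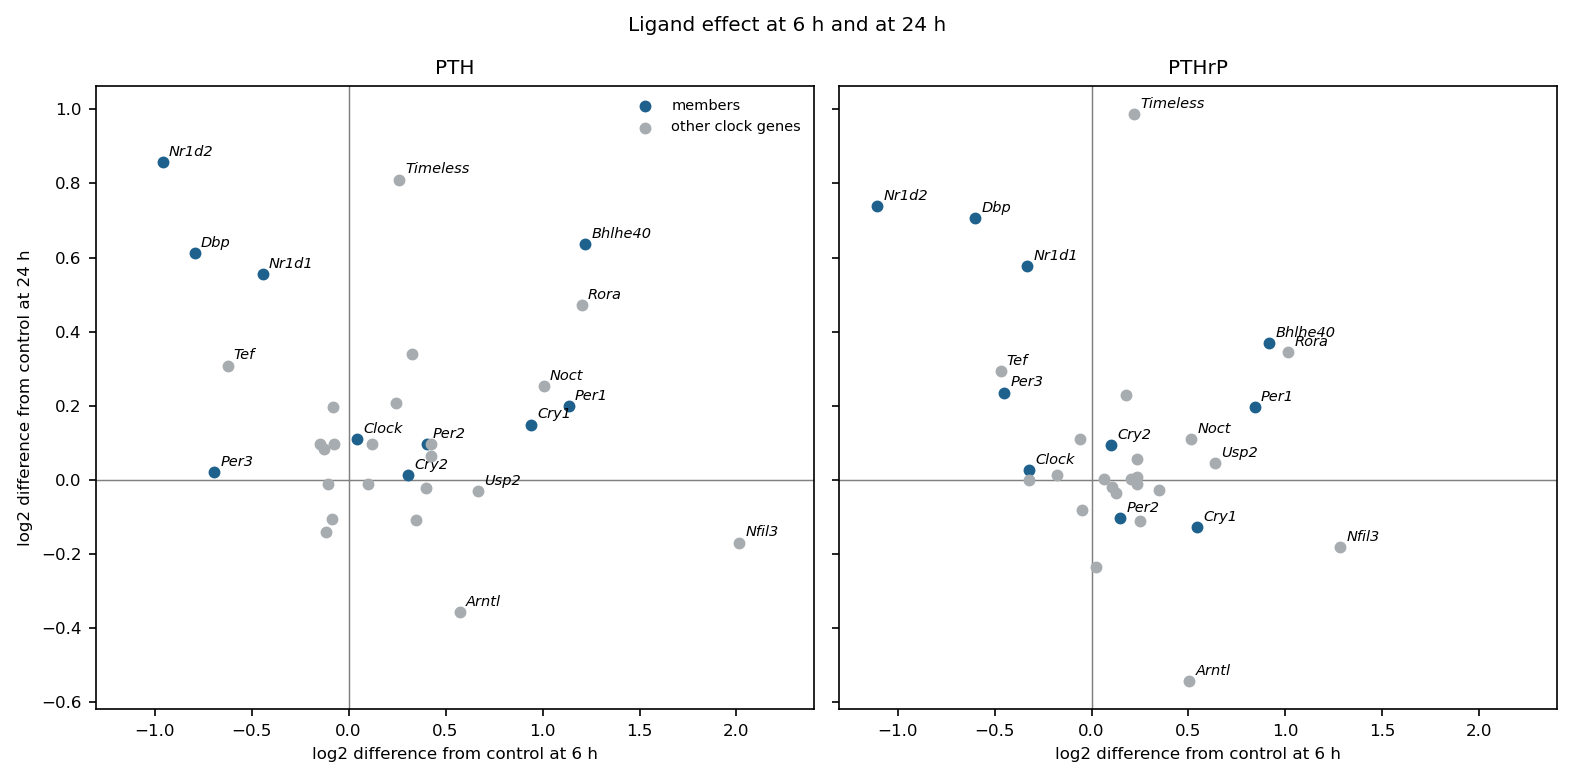
Log2 difference from control at 6 h (x axis) and at 24 h (y axis) for the 10 members (blue) and 22 other clock genes (grey), 1 point a gene, PTH left and PTHrP right; the 2 times have separate control arrays. Nr1d1, Nr1d2 and Dbp lie at upper left with both peptides and Arntl at lower right, while Bhlhe40 is above 0 on both axes.

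For PTHrP against PTH, 30 differences were set out, 10 members at 3 times, and none passed. At 1 h 0 of 10 passed with adjustment and 0 at an unadjusted p below 0.05, against 0% of all genes called (4.02% at an unadjusted p below 0.05). At 6 h 0 of 10 passed and 6 had an unadjusted p below 0.05, against 7.62% of all genes called and 20.4% at that unadjusted p. At 24 h 0 passed and 1 had an unadjusted p below 0.05, against 1.16% called and 9.57% at that unadjusted p. The widest bounds at 6 h were those of Clock, where PTHrP minus PTH was -0.37 ± 0.24 with a 95% interval of -0.86 to 0.13. For Cry1 the difference was -0.39 ± 0.16 (-0.72 to -0.06), for Per1 -0.29 ± 0.10 (-0.50 to -0.09, adjusted p = 0.0721) and for Bhlhe40 -0.30 ± 0.10 (-0.51 to -0.10, adjusted p = 0.0645). The Per1 arrays of PTHrP, 8.50, 8.20 and 8.20, were all below those of PTH, 8.56, 8.64 and 8.57, and the Per1 difference passed with quantile normalization, with array weights and without PTHrP 6 h replicate 1, the array nearest to PTH, the last at -0.39 (adjusted p = 0.0259). Nr1d2 and Nr1d1 at 6 h had intervals of -0.50 to 0.20 and -0.16 to 0.38, which do not show that the peptides act alike on them.

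The order of the 9 group means shows which members had a wide range. Nr1d2 spanned 2.76 log2 units, from 8.90 ± 0.03 with PTHrP at 6 h to 11.67 ± 0.13 with PTH at 24 h, and 5 of its 8 steps between neighbouring groups were free of overlap. Per1 spanned 2.51, from control at 24 h to PTHrP at 1 h, Bhlhe40 2.01, from control at 24 h to PTH at 1 h, and Dbp 1.94, from PTH at 6 h to PTHrP at 24 h, with 3, 5 and 3 such steps. The PTHrP and PTH groups that stood highest, at 1 h for Per1 and at 24 h for Dbp, overlapped each other. Nr1d1 and Per3 spanned 1.26 and 1.15 and had 2 such steps each. Cry1 spanned 0.94, Clock 0.75, Cry2 0.54 and Per2 0.51, with 1, 1, 0 and 0 such steps. Ordering by mean sets the closest groups side by side, so overlap of neighbours does not show that groups further apart were alike. Per2 was also the dimmest member, at 6.02 to 7.02 over the arrays.

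Over the 9 group means, which share a cell line and 3 times of collection and are given as a description, Nr1d1 and Nr1d2 had the highest correlation among the 45 pairs of members (Pearson r = 0.96), followed by Per3 and Dbp (0.95), Per1 and Cry2 (0.93) and Per1 and Bhlhe40 (0.90). Per3 and Cry1 ran most against each other (-0.77). Outside the members, the genes closest to Per1 by this measure were Midn (0.997), Fos (0.990), an immediate early transcription factor gene, and Bag3 (0.980), a co-chaperone gene. Closest to Bhlhe40 were Rgs2 (0.979), a regulator of G protein signalling, Dusp10 (0.975), a MAP kinase phosphatase, and Fosl2 (0.972), and closest to Nr1d2 were Gbp8 (0.987), Dst (0.987) and Oga (0.986).

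Of other clock genes, 22 were tested, and most of those called at 6 h rose. With PTH 2 rose at 1 h, 12 rose and 1 fell at 6 h, and 3 rose and 1 fell at 24 h, with medians of 0.05, 0.25 and 0.09 log2 units; of all genes 1.74%, 29.3% and 11.6% were called. With PTHrP 2 rose at 1 h, 6 rose and 1 fell at 6 h, and 1 rose and 1 fell at 24 h, with medians of 0.03, 0.21 and 0.0028; of all genes 1.81%, 20.9% and 6.1% were called. Nfil3, whose product represses at the D-box where Dbp activates, was at 11.11, 11.13 and 11.05 with PTH and 11.03, 11.04 and 10.98 with PTHrP, beside 8.97, 8.39 and 8.57 in the controls at 1 h. It rose by 2.45 ± 0.15 and 2.37 ± 0.15 at 1 h and by 2.01 ± 0.15 and 1.28 ± 0.15 at 6 h, clear of control each time (adjusted p = 3.22e-11, 6.32e-11, 1.43e-10 and 6.13e-07). At 6 h PTHrP raised Nfil3 less than PTH did, with PTHrP minus PTH at -0.73 ± 0.15 (adjusted p = 0.00346). Tef, a PAR bZIP relative of Dbp, fell by 0.62 ± 0.10 and 0.47 ± 0.10 at 6 h (adjusted p = 2.63e-05 and 0.00117), as did all 3 of its probe sets.

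Arntl, the partner of Clock and a target of REV-ERB repression, moved the other way from Nr1d2 at both 6 and 24 h on its brighter probe set. At 6 h it was at 9.25, 9.37 and 9.27 with PTH and 9.28, 9.16 and 9.25 with PTHrP, beside 8.76, 8.79 and 8.62 in the controls, and it rose by 0.57 ± 0.10 and 0.50 ± 0.10 (adjusted p = 8.82e-05 and 0.000635). At 24 h it was at 8.47, 8.66 and 8.42 with PTH and 8.34, 8.49 and 8.17 with PTHrP, beside 8.88, 8.84 and 8.89 in the controls, and it fell by 0.36 ± 0.10 and 0.54 ± 0.10 (adjusted p = 0.0208 and 0.000825). Treated and control arrays did not overlap at either time, but the PTH call at 24 h was lost without control replicate 1 or 3 or PTH replicate 1 or 3 (adjusted p = 0.061 to 0.096). A dimmer Arntl probe set did not pass, at 0.01 ± 0.15 and 0.03 ± 0.15 at 6 h. At 24 h it differed by 0.07 with PTH and -0.02 with PTHrP and did not pass either. The changes of Arntl thus rest on 1 probe set.

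Rora, the gene of the activating receptor ROR alpha, rose by 1.20 ± 0.19 and 1.01 ± 0.19 at 6 h (adjusted p = 1.92e-05 and 0.000272), and of its 9 probe sets 8 rose with PTH and 6 with PTHrP. Usp2, a deubiquitinase gene under clock control, rose by 1.25 ± 0.16 and 1.49 ± 0.16 at 1 h and by 0.67 ± 0.16 and 0.64 ± 0.16 at 6 h (adjusted p = 6.17e-06, 4.42e-07, 0.00161 and 0.00399). A dimmer Usp2 probe set rose by 2.32 ± 0.15 and 2.32 ± 0.15 at 1 h. Noct, the gene of nocturnin, rose by 1.01 ± 0.11 and 0.51 ± 0.11 at 6 h, and PTHrP minus PTH was -0.49 ± 0.11 (adjusted p = 0.00569). Timeless averaged 8.46 ± 0.14 with PTH and 8.64 ± 0.09 with PTHrP at 24 h, beside 7.65 ± 0.25 in the controls (SD, n = 3), and was higher by 0.81 ± 0.09 and 0.99 ± 0.09 (adjusted p = 9.35e-07 and 7.19e-08). In untreated cells it fell by 0.91 ± 0.09 between 6 and 24 h (adjusted p = 6.19e-08). Both of its probe sets fell over that interval, and at 24 h the dimmer one differed from control by 0.09 ± 0.12 and -0.18 ± 0.12 and did not pass.

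The members had 22 probe sets in all, and 5 members had more than 1, which allowed a check of the values within the same arrays. Both probe sets of Nr1d2 and both of Dbp were called lower at 6 h and higher at 24 h with each peptide. The dimmer Nr1d2 probe set differed by -0.82 ± 0.16 and -0.71 ± 0.16 at 6 h and by 1.04 ± 0.16 and 0.83 ± 0.16 at 24 h. Per3 had 6 probe sets, and at 6 h 5 lay below control with PTH, of which 3 passed, and 6 with PTHrP, of which 2 passed. The exception was near 0, at 0.02 ± 0.12. None of the 4 Clock probe sets passed with either peptide at any time.

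The 3 probe sets of Per2 disagreed. The one used here had a mean of 6.52, barely above the 6.51 of another that rose by 0.65 ± 0.10 with PTH and 0.38 ± 0.10 with PTHrP at 6 h (adjusted p = 9.89e-06 and 0.0055). The third differed by 0.10 ± 0.12 and 0.10 ± 0.12 and did not pass. In untreated cells the other bright Per2 probe set fell by 0.85 ± 0.10 from 1 to 6 h (adjusted p = 6.28e-06), while the one used here differed by -0.21 ± 0.11. Statements on Per2 therefore depend on the probe set.

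**Figure D4:**
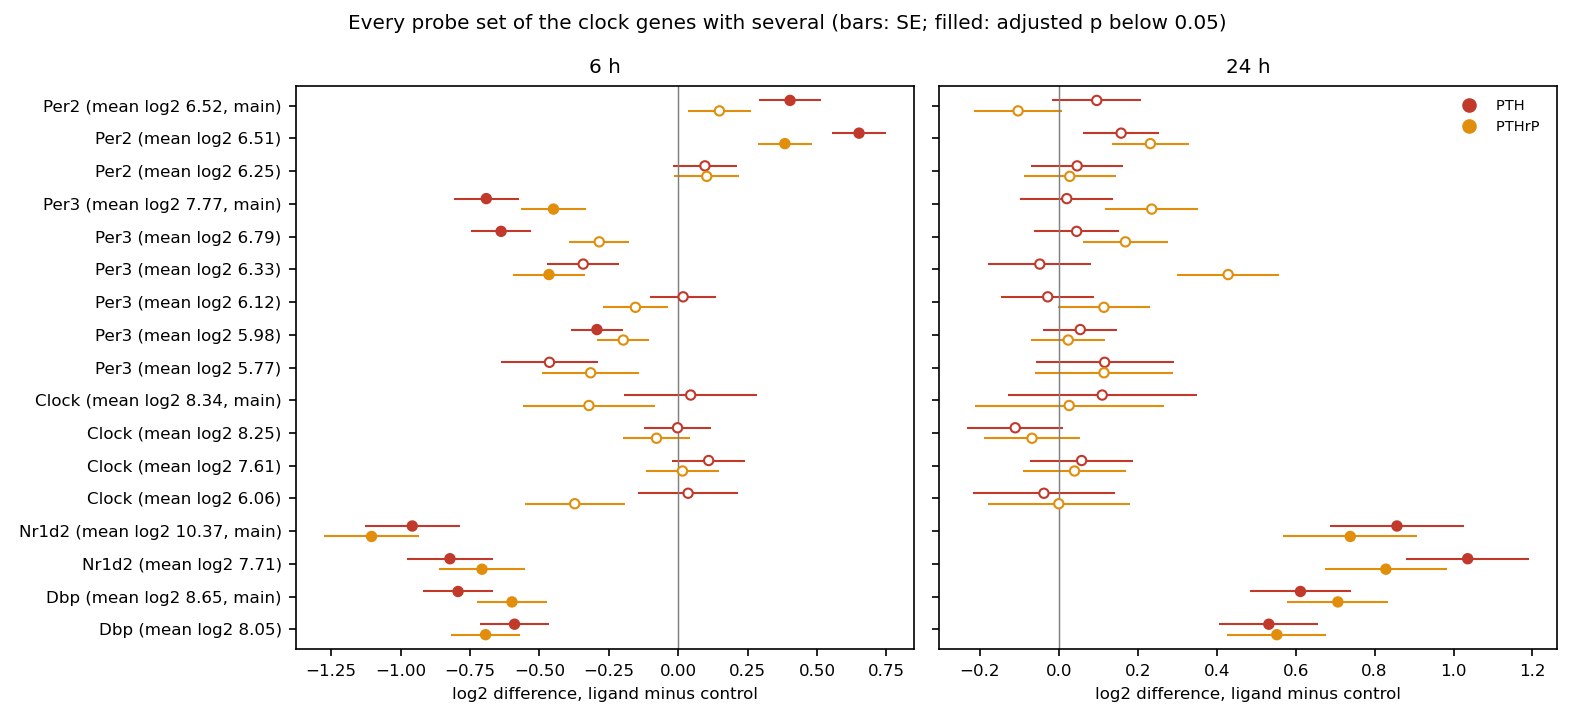
Log2 difference from control with its SE for every probe set of the 5 members that have several, at 6 h (left) and 24 h (right), PTH above PTHrP in each row and filled where the adjusted p over all probe sets was below 0.05. Both probe sets of Nr1d2 and of Dbp are filled below 0 at 6 h and above 0 at 24 h, and the 3 of Per2 spread from 0.10 to 0.65 with PTH at 6 h.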

How the data were processed

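Total RNA of 27 samples was read on arrays of 1 biotin-labelled colour. Linear intensity was deposited by the authors for each probe set. The submitters' processing notes name RMA; its version and background model are not given here. The study dates from 2008, and its arrays were renormalized in 2013 for the deposit, per the design text. RMA pulls array distributions together, which would hide a change common to most transcripts. The log2 of each value was taken. The 64 control probe sets were left out; of the other probe sets, of 45101 in all, 34945 had 1 symbol, 932 several and 9160 none. Per gene the probe set with the highest mean was kept, and genes at log2 5 or more on at least 3 arrays were tested, 15711 of 18193.

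limma 3.58.1 in R 4.3.3 (lmFit, eBayes) fitted 9 group means with 18 residual and 5.54 prior degrees of freedom, two-sided, with Benjamini-Hochberg adjustment over all genes and a threshold of 0.05, in 16 comparisons. Precision is limited by the number of arrays, with a median SE of 0.102 between 2 groups and 0.144 for a change of effect. The steps were tested on simulated data. Members and lists were chosen with earlier results of these data known. The text names all members, other clock genes called with a log2 difference of at least 0.5 against control, and, for members called at 1 or more, the 3 genes nearest by correlation; single cases beyond this were chosen after their values were seen. Alternatives were quantile normalization, log2(value + 32), no filter, every probe set, only the groups compared, array weights, a replicate block and leaving out each array. Background correction and scan batches could not be varied. Gene names came from GEO's platform annotation. Some genes of the lists are not reported here.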

Additional observations from a re-analysis of the deposited data

Results flagged for a closer look

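The difference between treated and untreated cells changed with time for most members, with at least 1 peptide over at least 1 interval. The change itself was tested, with adjusted p below 0.05. From 1 to 6 h 7 of 10 members changed with PTH and 4 with PTHrP, against 18.5% and 12.2% of all genes tested. From 6 to 24 h 7 and 6 did, against 20.4% and 12.1%. From 1 to 6 h the PTH effect changed by -0.49 for Per1, 0.46 for Per2, -0.77 for Per3, 0.85 for Cry1, -1.22 for Nr1d2, -0.87 for Dbp and -0.56 for Bhlhe40 log2 units, and the PTHrP effect by -0.78 for Per1, -1.14 for Nr1d2, -0.80 for Dbp and -0.70 for Bhlhe40. From 6 to 24 h the PTH effect changed by -0.94 for Per1, 0.71 for Per3, -0.79 for Cry1, 1.00 for Nr1d1, 1.81 for Nr1d2, 1.41 for Dbp and -0.58 for Bhlhe40, and the PTHrP effect by -0.65 for Per1, 0.68 for Per3, 0.91 for Nr1d1, 1.84 for Nr1d2, 1.31 for Dbp and -0.55 for Bhlhe40. The Per2 call was lost in 8 of 12 fits that each left out 1 array. The 1 h to 6 h and 6 h to 24 h changes share the arrays of 6 h. No formal test for a single outlying array was run in groups of 3 arrays.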

How the results depend on the processing

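Of 56 member results called over the 16 comparisons, 46 kept their call in each fit on the same probe set, and 10 lost it when 1 array was left out, 2 of them under another alternative as well: Bhlhe40 with PTHrP at 24 h with only the groups compared, and the change of the Per2 effect with PTH under quantile normalization. No call reversed on the same probe set. On other probe sets of the members, 48 values belonged to called results, of which 20 kept the sign but did not pass and 2 had the opposite sign. Another 7 values passed where the probe set used did not. The 2 of opposite sign were on Per3 probe sets, where the PTH difference at 6 h was 0.0178 and its change from 6 to 24 h was -0.0459. Counts of members called kept within 1.5 times of the main count except as follows, and the cause was not tested. Apart from the totals named for array weights, the share of all genes called in each of these fits is not given here. A larger count of members below is therefore not a result about the members. With array weights 4 members passed with PTHrP at 1 h, 4 for PTHrP against PTH at 6 h and 1 at 24 h, 8 for the PTHrP change from 1 to 6 h, and in untreated cells 4 from 1 to 6 h and 6 from 1 to 24 h. Array weights also called more genes in all, for example 1764 in place of 285 for PTHrP against control at 1 h and 4540 in place of 1197 for PTHrP against PTH at 6 h. For PTHrP against PTH at 6 h, 1 passed with quantile normalization and 1 with log2(value + 32). In untreated cells from 1 to 24 h, 4 passed with each of these, 3 with the replicate block and 4 with only the groups compared, which also gave 4 from 1 to 6 h and 4 from 6 to 24 h. Leaving out 1 array gave 2 to 5 members with PTHrP at 1 h (5 without PTHrP replicate 3), 2 to 4 with PTHrP at 24 h (2 without control replicate 3), 0 to 1 for PTHrP against PTH at 6 h (1 without PTHrP replicate 1) and 1 to 2 in untreated cells from 1 to 24 h (2 without control 1 h replicate 1 or control 24 h replicate 1). Replicate numbers are shared by the groups, with no culture or day named; only 1 of 9 pairs of groups of the same time had all correlations of same-numbered arrays above 0.1, so the numbers were not taken to pair arrays, and apart from the count of 3 above the replicate block moved no count of members by over 1.5 times. With 3 arrays a group, differences of 0.20 log2 units (Per1 at 24 h) did not pass.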
